A study of Mus musculus with 6 samples.

Results

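The E2F family and the pocket proteins were followed as 10 genes, chosen by symbol among the 53465 rows of the deposited RPKM table: the activator E2Fs E2f1, E2f2 and E2f3, the repressor E2Fs E2f4, E2f6, E2f7 and E2f8, and the pocket protein genes Rb1, Rbl1 and Rbl2. Each symbol matched 1 row, and all 10 genes passed the filter on low values. RPKM is the number of reads per kilobase of gene length, relative to a total of reads for the library. Levels can therefore be set against each other between genes within a library, while comparisons between libraries also depend on the scaling.

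The samples were a mouse leukaemia line, Nras(G12D)/MLL-AF9, which carries a mutant Nras and a fusion of Kmt2a (MLL) with Mllt3 (AF9). Both groups shared these lesions and were grown in serum-containing medium with SCF, IL-3 and IL-6. The OMP group, 3 libraries, received 100 µM 4'-O-methylpyridoxine (OMP), an analog of vitamin B6 also called ginkgotoxin and a known inhibitor of pyridoxal kinase, for 6 days. The Vehicle group, 3 libraries, received the same volume of PBS for the same time. The labels do not say whether the line is a single clone or whether replicates came from separate cultures, so the p-values refer to library-to-library spread alone, which could be technical.

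E2F proteins bind DNA mostly as pairs with a DP protein and set the transcription of genes for entry into S phase. Rb1 restrains the activators until cyclin-dependent kinases phosphorylate it, while its relatives p107 (Rbl1) and p130 (Rbl2) work mainly with E2f4 and, in resting cells, as part of the repressive DREAM complex. E2f6 represses without a pocket protein, in a Polycomb complex, and the atypical E2f7 and E2f8 bind DNA without a DP partner and repress E2F targets late in S phase. E2f1, E2f2, E2f7, E2f8 and Rbl1 are themselves known E2F targets. Much of this control acts on the proteins, which were not measured here.

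Because several members are E2F targets, the stretches just upstream of their transcription starts were searched for E2F letters and are printed for the members with a match. RefSeq promoter windows on GRCm38.p6, from 250 bases before a start to 50 bases after it, were found for 8 of the 10 genes as 10 windows. E2f4 and Rb1 had none in the table. The E2F letters searched on both strands were TTTCCCGC, TTTCGCGC, TTTGCCGC and TTTGGCGC. A shorter core, the same letters without their first T, was also searched, and every full match also holds the core. The cell-cycle homology letters TTTGAA, bound by DREAM and B-Myb complexes, were searched in the same way. Below, 5′ to 3′ along each gene, capitals mark these letters as found on either strand.
E2f7, chr10:110745189-110745438, plus strand: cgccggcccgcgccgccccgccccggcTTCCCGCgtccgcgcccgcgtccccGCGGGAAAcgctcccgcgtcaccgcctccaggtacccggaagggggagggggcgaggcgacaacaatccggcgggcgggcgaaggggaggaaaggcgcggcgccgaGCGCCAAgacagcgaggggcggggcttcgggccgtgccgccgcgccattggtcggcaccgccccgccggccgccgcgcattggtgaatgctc
E2f8, chr7:48881597-48881746, minus strand: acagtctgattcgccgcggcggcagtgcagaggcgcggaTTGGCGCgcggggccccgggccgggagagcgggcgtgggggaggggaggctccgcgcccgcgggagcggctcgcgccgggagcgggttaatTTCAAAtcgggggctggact
E2f3, upstream start, chr13:29986064-29986163, minus strand: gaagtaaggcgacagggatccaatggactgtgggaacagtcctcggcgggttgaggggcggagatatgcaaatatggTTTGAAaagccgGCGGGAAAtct
Rbl1, chr2:157204535-157204634, minus strand: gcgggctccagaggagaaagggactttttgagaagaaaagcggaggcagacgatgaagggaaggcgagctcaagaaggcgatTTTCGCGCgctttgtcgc
E2f2, 30 bases around the match, chr4:136172294-136172323, plus strand: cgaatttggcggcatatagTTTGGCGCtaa

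Full E2F letters were present in 4 of the 10 member windows, those of E2f2, E2f3 (upstream start), E2f7 and Rbl1. Over all 32851 windows of the table, with genes that did not pass the filter among them, the share was 2.26%. Counted per gene, it was 5.04% of the 8167 genes that passed the filter and had a window. The shorter core was in 5 of the 10, with E2f8 as the addition, against 9.57% of all windows. Positions are those of the leftmost base of a match, counted from the start, with -1 as the base before it. In E2f7 the full letters lay at -198, with 2 further core matches at -223 and -92. The full letters lay at -18 in Rbl1, at -11 in E2f3 and at 40, downstream of the start of the window's transcript, in E2f2. The annotated E2f2 gene used for positions below begins further on, at 136172394, so the same match lies before that start. In E2f8 the core lay at -111 and the TTTGAA letters at -20. TTTGAA was in 4 member windows and in 17.9% of all windows. Neither full nor core letters were in the windows of E2f1, E2f6 or Rbl2, which says only that these letters are not there. The E2f1 window lies inside the annotated gene, downstream of its outermost start, so it does not cover the stretch upstream of that start. A match describes the sequence and is not a measured binding site, and E2f3, which holds one, was not among the members that changed.

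Of the 10 members 7 fell with OMP and 0 rose. E2f2, E2f7 and E2f8 fell most, with mean RPKM 3.24, 2.89 and 2.31 times lower in OMP. E2f1 fell 1.58-fold, Rb1 1.31-fold, and E2f6 and Rbl1 1.23-fold each. E2f3, E2f4 and Rbl2 did not pass the threshold. The test was limma on log2(RPKM + 0.5) over all 11020 genes that passed the filter, with Benjamini-Hochberg adjusted p under 0.05 as the threshold, and it called 43.0% of them, 27.5% as lower and 15.4% as higher. Below, a log2 change is OMP minus Vehicle on the log2(RPKM + 0.5) scale. The split between higher and lower calls, 1702 and 3033, became 2368 and 2238 with median-of-ratios scaling, 2244 and 2321 with quantile normalization and 1223 and 3922 with TPM rescaling. The median log2 change was -0.34 over the members and -0.09 over all tested genes. A fall of at least 2-fold was called for 3 members and for 2.21% of tested genes. In 8 members the 3 OMP values did not overlap the 3 Vehicle values, all with OMP lower. Groups did not overlap in 54.5% of tested genes, and did so with OMP lower in 34.6%. In bulk RNA, fewer cells that express a gene and less RNA of it per cell cannot be told apart.

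**Figure D1:**
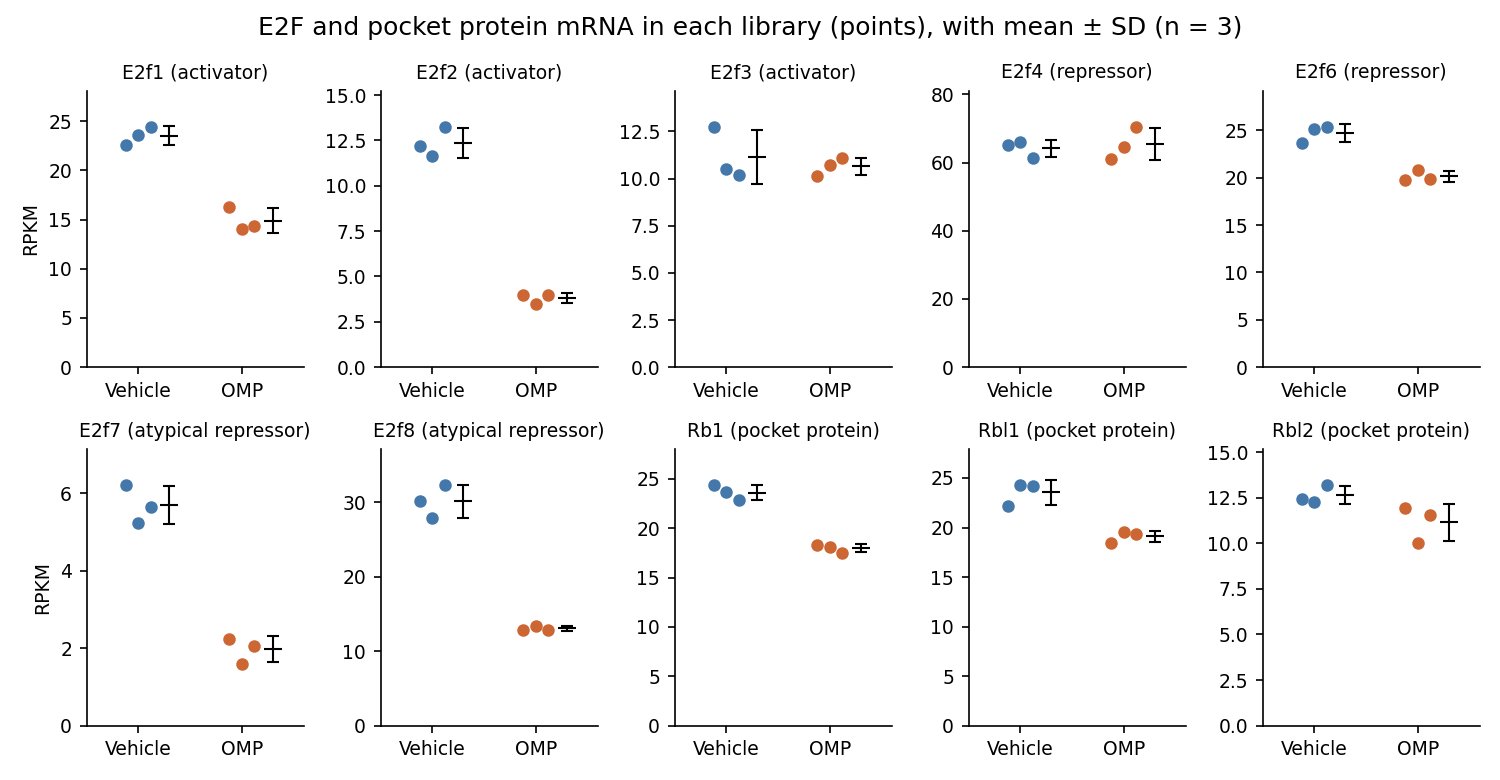
RPKM of each of the 10 members (y axis, from 0) in the 3 Vehicle and 3 OMP libraries (points), with the group mean ± SD beside them. E2f2, E2f7 and E2f8 show the widest gaps between groups, while the points of E2f3 and of E2f4 overlap.

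Among the activators, E2f2, which drives S-phase genes in haematopoietic cells, had the largest fall of the family. It lies at chr4:136172394-136196057 on GRCm38. Its RPKM was 12.2, 11.7 and 13.3 in Vehicle replicates 1 to 3 and 3.98, 3.51 and 3.97 in OMP replicates 1 to 3. All OMP libraries lay far below the lowest Vehicle library. The means of 12.4 ± 0.819 and 3.82 ± 0.273 (SD, n = 3) differ 3.24-fold, a log2 change of -1.58 (SE 0.10, limma adjusted p = 1.03e-05), and 0.336% of tested genes had a lower value. It rests on 709 Vehicle and 195 OMP reads.

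E2f1, the activator best known for linking cell-cycle entry and apoptosis (chr2:154559407-154569892), fell less. It stood at 22.5, 23.6 and 24.4 RPKM in Vehicle and at 16.3, 14.0 and 14.3 RPKM in OMP. The groups did not overlap, and OMP replicate 1 was the highest of its group. The log2 change was -0.65 (SE 0.07, limma adjusted p = 0.000255).

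E2f3 gives rise to a longer and a shorter protein from separate promoters, which RPKM of the whole gene (chr13:29906575-29986063) does not separate. Its values were 12.8, 10.5 and 10.2 RPKM in Vehicle and 10.2, 10.7 and 11.1 RPKM in OMP. Vehicle replicate 1 was the highest of the 6 libraries and the others lay together, so the groups overlapped. The log2 change was -0.06 with a 95% interval from -0.28 to 0.17 (limma adjusted p = 0.678), and it ranged from -0.14 to 0.05 over 16 alternatives, never called, and was above 0 with median-of-ratios scaling, with quantile normalization and without Vehicle replicate 1. As a log2 difference between the genes within a library, E2f1 minus E2f3 went from 1.05 ± 0.225 to 0.46 ± 0.169 (SD, n = 3) without overlap.

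Among the repressors, E2f4, the main partner of p107 and p130 (chr8:105297663-105305370), was the most abundant member in every library. It measured 65.2, 66.0 and 61.3 RPKM in Vehicle and 61.2, 64.4 and 70.5 RPKM in OMP. The groups overlapped, with the lowest and the highest library both in OMP. The log2 change was 0.02 with a 95% interval from -0.11 to 0.16 (limma adjusted p = 0.768). It ranged from -0.06 to 0.11 over the alternatives and was below 0 with TPM rescaling and without Vehicle replicate 3 or OMP replicate 3.

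E2f6, the Polycomb-linked repressor (chr12:16810963-16839742), fell modestly. It measured 23.7, 25.2 and 25.4 RPKM in Vehicle and 19.8, 20.8 and 19.9 RPKM in OMP. The groups did not overlap, and the log2 change was -0.29 (SE 0.06, limma adjusted p = 0.00419). With 29.2% of tested genes lower than it, this fall was of a common size in these libraries.

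The atypical repressors E2f8 (chr7:48866429-48881596) and E2f7 (chr10:110745439-110787384) both fell. E2f8 measured 30.1, 27.9 and 32.3 RPKM in Vehicle and 12.9, 13.4 and 12.8 RPKM in OMP. Every OMP library was far under the lowest Vehicle library, and the log2 change was -1.17 (SE 0.07, limma adjusted p = 7.41e-06), a 2.31-fold difference of the means. E2f7, a close relative that can pair with E2f8, measured 6.21, 5.23 and 5.64 RPKM in Vehicle and 2.25, 1.59 and 2.06 RPKM in OMP.

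E2f7 was the least abundant member in both groups and rests on the fewest reads, 375 in Vehicle and 116 in OMP, with 31 in OMP replicate 2. Its groups did not overlap, and the log2 change was -1.33 (SE 0.15, limma adjusted p = 0.000261). The ratio of its mean RPKM values, 2.89, exceeds the 2.52-fold of the log2 scale because the pseudocount pulls low values together. Exons of E2f8 share 11.2% of their bases with Gm2788 on the other strand, and those of E2f7 share 0.95% with 1700020G17Rik. The strand setting of the counting is not given in the sources used here. Both partners were low, with means of 0.233 and 0.0472 RPKM for Gm2788 in Vehicle and OMP and of 0 and 0.121 RPKM for 1700020G17Rik.

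Of the pocket protein genes, Rb1 and Rbl1 fell and Rbl2 did not pass the threshold. Rb1, the retinoblastoma gene (chr14:73183673-73325822), measured 24.4, 23.6 and 22.8 RPKM in Vehicle and 18.3, 18.1 and 17.5 RPKM in OMP. Its groups did not overlap, with a log2 change of -0.38 (SE 0.06, limma adjusted p = 0.000955), and 21.3% of tested genes had a lower value.

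Rbl1 (p107; chr2:157145893-157204534), itself an E2F target, measured 22.1, 24.3 and 24.2 RPKM in Vehicle and 18.4, 19.5 and 19.4 RPKM in OMP. Its groups did not overlap, and the log2 change was -0.29 (SE 0.06, limma adjusted p = 0.00562). With 28.7% of tested genes lower than Rbl1, this fall was also of a common size. Rbl2 (p130), the pocket protein typical of resting cells (chr8:91070057-91123844), measured 12.4, 12.3 and 13.2 RPKM in Vehicle and 11.9, 10.0 and 11.6 RPKM in OMP. OMP replicate 1 lay just under the lowest Vehicle library. Rbl2 did not pass the threshold, with a log2 change of -0.17 and a 95% interval from -0.37 to 0.02 (limma adjusted p = 0.134). Its log2 change ranged from -0.26 to -0.07 over the alternatives, and was -0.10 without OMP replicate 2. Exons of Rb1 overlap those of Rcbtb2 (8.11% of bases) and Lpar6 (6.78%), and exons of Rbl2 those of Aktip (9.17%) and Gm45464 (11.8%), all on the other strand. Mean RPKM in Vehicle and OMP was 9.66 and 11.0 for Rcbtb2, 2.15 and 2.47 for Lpar6, 9.86 and 9.35 for Aktip and 0.0562 and 0.033 for Gm45464.

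**Figure D2:**
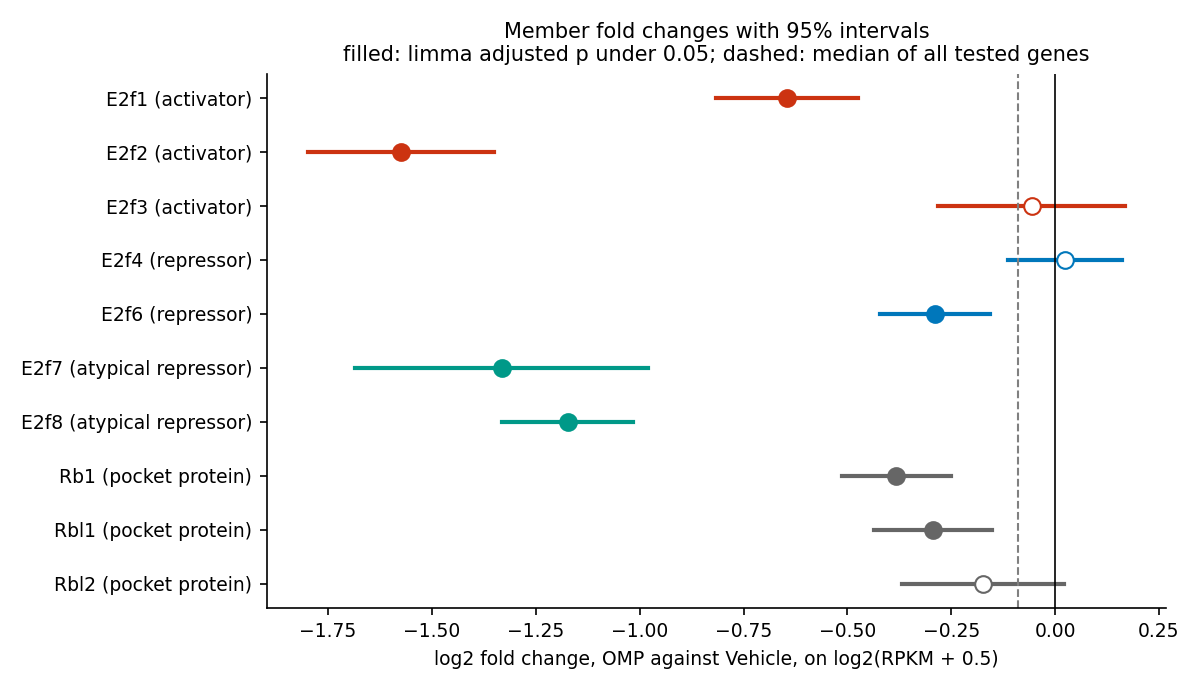
Log2 fold change of each member, OMP against Vehicle, on the log2(RPKM + 0.5) scale (x axis), with limma's 95% interval, not adjusted for the number of genes. E2f2, E2f7 and E2f8 lie below -1, and the intervals of E2f3, E2f4 and Rbl2 include 0.

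The names activator and repressor did not divide the family by direction. Of the 3 activators 2 fell, and of the 4 repressors 3 fell, while 27.5% of all tested genes were called lower. The mean log2 level of the activators minus that of the repressors was -0.61, -0.64 and -0.63 in Vehicle and -0.65, -0.71 and -0.70 in OMP. The OMP values were all lower, by 0.07 on average and by 0.04 with quantile normalization, and this small gap hides larger ones of opposite sign. Against E2f4 and E2f6 the activators fell by 0.63, from -1.40 ± 0.0731 to -2.03 ± 0.0909. Against E2f7 and E2f8 they gained 0.49, from 0.16 ± 0.0502 to 0.65 ± 0.0327 (SD, n = 3). These scores over chosen genes were given no test.

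Summed by level, RPKM of the 3 activators went from 47.0 ± 1.12 to 29.4 ± 1.12, that of E2f7 with E2f8 from 35.8 ± 2.45 to 15.0 ± 0.118, and that of E2f4 with E2f6 from 88.9 ± 2.21 to 85.5 ± 4.77. The make-up of E2F mRNA therefore moved towards E2f4. Its share of the summed RPKM of the 7 E2F genes was 37.8%, 38.8% and 35.5% in Vehicle and 48.4%, 50.1% and 52.4% in OMP. The share of E2f8 was 17.4%, 16.4% and 18.7% in Vehicle and 10.2%, 10.4% and 9.52% in OMP. E2f2 went from 7.20% ± 0.434 to 2.94% ± 0.211 (SD, n = 3). The mean shares of E2f3, E2f4 and E2f6 were higher in OMP (E2f6 at 14.4% and 15.5%), although the levels of E2f3 and E2f4 did not pass the threshold and that of E2f6 fell. The sum of the 7 E2F genes was 2.87 ± 0.0530 times that of the 3 pocket protein genes in Vehicle and 2.69 ± 0.0911 times in OMP.

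**Figure D3:**
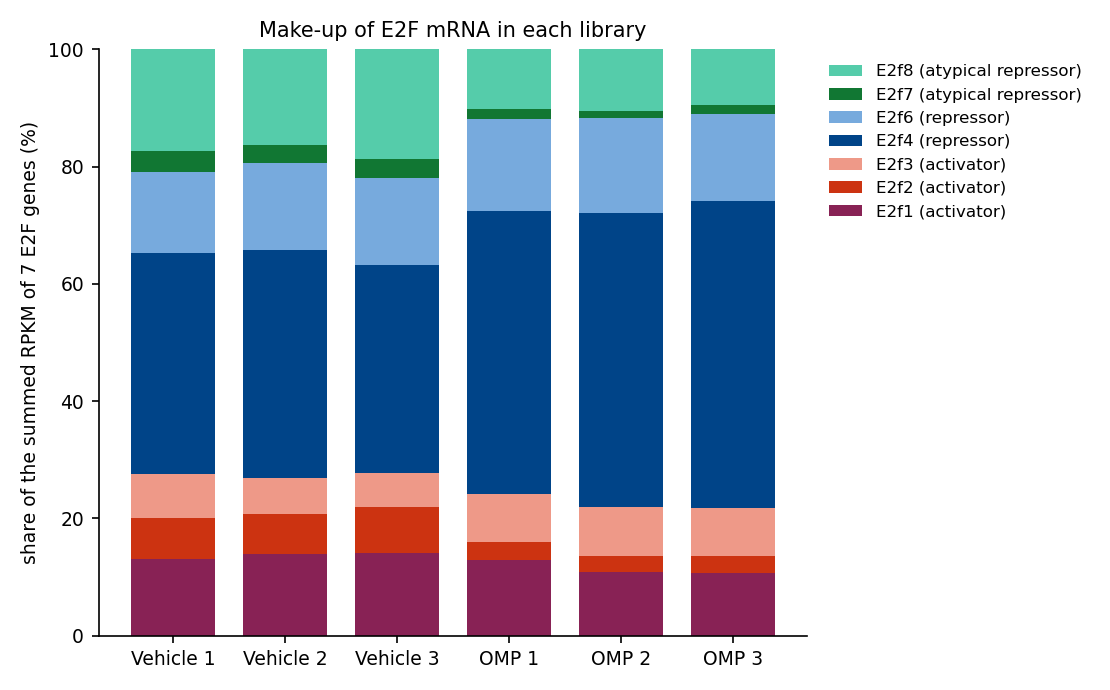
Share of each E2F gene in the summed RPKM of the 7 E2F genes (y axis, percent) in each library (bars). E2f4 takes 35.5% to 38.8% in Vehicle and 48.4% to 52.4% in OMP, and the bands of E2f2, E2f7 and E2f8 narrow.

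Within a library, 8 pairs of members were compared as log2 differences, with an exact two-sided permutation test over the libraries whose smallest possible p is 0.10. E2f2 minus E2f1 went from -0.90 ± 0.0744 to -1.83 ± 0.0899 and E2f8 minus E2f4 from -1.08 ± 0.158 to -2.28 ± 0.117, both without overlap (exact permutation p = 0.10, adjusted p = 0.16 over the 8 pairs). E2f1 minus E2f3, E2f6 minus E2f4 and E2f2 minus E2f8 reached the same p without overlap. E2f7 minus E2f8 overlapped, with a difference of -0.16 ± 0.15 SE between groups (exact permutation p = 0.50). Rb1 minus Rbl1 (-0.09 ± 0.08 SE, exact permutation p = 0.40) and Rb1 minus Rbl2 (-0.21 ± 0.10 SE, exact permutation p = 0.20) overlapped too. No pair could pass the threshold in this design.

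In the order of levels, Vehicle libraries had E2f4 first, then E2f8, then E2f6, Rb1, Rbl1 and E2f1 as neighbours whose ranges overlapped, then Rbl2, E2f2 and E2f3, again with overlapping neighbours, and E2f7 last. In OMP libraries E2f4 was again first and E2f7 last. E2f8 stood behind E2f6, Rbl1, Rb1 and E2f1, and E2f2 fell behind Rbl2 and E2f3, whose ranges overlapped each other. The other neighbours in OMP had separate ranges.

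The DP partners and E2f5 come from a list of pathway genes that holds no member. Tfdp2, a DP subunit, fell by about as much as E2f7. It measured 6.91, 6.91 and 7.11 RPKM in Vehicle and 2.68, 2.11 and 2.45 RPKM in OMP, a log2 change of -1.36 (SE 0.12, limma adjusted p = 7.58e-05). Tfdp1, the more abundant DP subunit, went from 130.8 ± 6.41 to 113.4 ± 1.49 RPKM (SD, n = 3), a log2 change of -0.20 (limma adjusted p = 0.00589). That call was lost with median-of-ratios scaling (-0.12, adjusted p = 0.0675). E2f5, a repressor that pairs with p130, stood at 4.24 ± 0.460 and 3.29 ± 0.167 RPKM and did not pass the threshold (limma adjusted p = 0.0839), although it did with TPM rescaling (-0.42, adjusted p = 0.0405).

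The DREAM core with B-Myb and FoxM1 had 5 of 7 tested genes lower and 0 higher, with a median log2 change of -0.49. Over all tested genes 27.5% were called lower and 15.4% higher, with a median of -0.09. Foxm1, which drives mitotic genes, fell 2.54-fold from 16.3 ± 0.888 to 6.45 ± 0.572 RPKM. Mybl2 (B-Myb), an E2F target that takes over the MuvB core in S phase, fell 1.53-fold from 23.9 ± 0.798 to 15.6 ± 0.616 RPKM. The histone-binding subunit gene Rbbp4 went from 112.7 ± 5.02 to 80.8 ± 1.04 RPKM. Lin54 and Lin9, named after their values were seen, also fell, at -0.68 and -0.49 on the log2 scale.

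The list of partners of E2f6 in the PRC1.6 complex, which includes E2f6 itself, moved in both directions. Of 13 tested genes 2 were higher and 5 lower, with a median of -0.14. Over all tested genes 15.4% were called higher and 27.5% lower, with a median of -0.09. These counts are therefore not read as a trait of the list. Mga, the scaffold of that complex, rose from 7.56 ± 0.729 to 11.7 ± 1.36 RPKM and Pcgf6, its Polycomb ring-finger subunit, from 14.9 ± 0.376 to 19.7 ± 1.29 RPKM (limma adjusted p = 0.00273 and 0.0022). Hdac1, a histone deacetylase that pocket proteins also recruit, fell from 60.8 ± 2.86 to 48.1 ± 1.42 RPKM. Max and Rnf2, named after their values were seen, fell too, at -0.38 and -0.43 on the log2 scale. Hdac2, picked in the same way, passed the threshold narrowly at -0.14 (limma adjusted p = 0.0449). Max, Rnf2 and Hdac2 were not followed over the alternatives. Of 12 germline genes linked to silencing by E2f6 or PRC1.6, 7 were listed at 0 in all libraries and 1, Tdrkh, passed the filter, at 10.1 ± 0.257 and 8.98 ± 0.469 RPKM (limma adjusted p = 0.118, and 0.0362 with TPM rescaling).

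Set against 27.5% called lower and 15.4% called higher over all tested genes, with a median of -0.09, the cyclins and kinases were mostly lower. Of 10 cyclin and kinase genes that act on pocket proteins, 7 fell and 0 rose, with a median of -0.47. The late ones fell, with Ccne1 (cyclin E1) at -0.75, Ccne2 at -0.67, Cdk2 at -0.66 and Ccna2 (cyclin A2) at -0.96 on the log2 scale (limma adjusted p = 0.000141, 0.00103, 1.64e-05 and 4.30e-06). Of the D cyclins, which start the phosphorylation of Rb1, Ccnd3 fell from 89.2 ± 1.95 to 65.4 ± 3.63 RPKM. Ccnd1 stood at 12.5 ± 0.568 and 12.4 ± 0.0207 RPKM and Ccnd2 at 56.9 ± 2.90 and 57.7 ± 2.27 RPKM, and neither passed the threshold (limma adjusted p = 0.933 and 0.794). Cdk6, at 57.7 ± 2.09 and 59.9 ± 3.94 RPKM, did not pass it either (limma adjusted p = 0.481). Cdk4 had a log2 change of -0.14 (limma adjusted p = 0.0120), lost with median-of-ratios scaling (-0.05, adjusted p = 0.311).

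CDK inhibitors, which keep pocket proteins active, split, with 3 higher and 2 lower of 6 tested genes. The shares over all tested genes were 15.4% higher and 27.5% lower. Cdkn1a (p21) rose 1.73-fold from 78.3 ± 6.05 to 135.2 ± 4.42 RPKM (limma adjusted p = 2.73e-05). Cdkn2d (p19Ink4d) fell from 37.3 ± 2.55 to 19.9 ± 1.64 RPKM (limma adjusted p = 5.50e-05). Cdkn2a, whose row joins a pair of unrelated proteins, had a log2 change of 0.27, and Cdkn2b and Cdkn2c, named after their values were seen, had 0.64 and -1.50. Cdkn1b (p27) stood at 7.05 ± 0.880 and 6.07 ± 0.453 RPKM (limma adjusted p = 0.207). Of 14 chromatin repressors that pocket proteins recruit, 6 fell, 0 rose and 8 were not called, while 27.5% of all tested genes were called lower. Among the 6 were Cbx5 (HP1 alpha) at -0.66 and Kmt5c, a histone H4 methyltransferase, at -0.68 on the log2 scale. The list median of -0.10 was near that of all tested genes, -0.09.

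The list of 40 G1/S genes known as E2F targets, which holds no member, had 37 lower and 0 higher of 39 tested genes, with a median of -0.67. Over all tested genes 27.5% were called lower and 15.4% higher, with a median of -0.09. From the G1/S list, Ccne1, Ccne2 and Ccna2 are also counted with the cyclins and kinases, and Mybl2 with the DREAM core. Hdac1 and Hdac2 are likewise in both the PRC1.6 and the chromatin repressor lists, so the counts of these lists are not separate. Rrm2 (ribonucleotide reductase) fell 2.47-fold and Cdt1 (replication licensing) 2.16-fold in mean RPKM. Pcna, the sliding clamp, went from 192.0 ± 8.32 to 124.3 ± 6.06 RPKM and Cdc6, a licensing factor, from 19.2 ± 1.06 to 9.58 ± 0.902 RPKM. Slbp and Orc1 were the 2 tested genes not called. The mean folds of E2f2 (3.24) and E2f7 (2.89) were larger than that of Rrm2, that of E2f8 (2.31) lay between Rrm2 and Cdt1, and that of E2f1 (1.58) was near Pcna (1.55). Earlier results of these data had already shown that G1/S genes fell, so this count is no independent support.

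**Figure D4:**
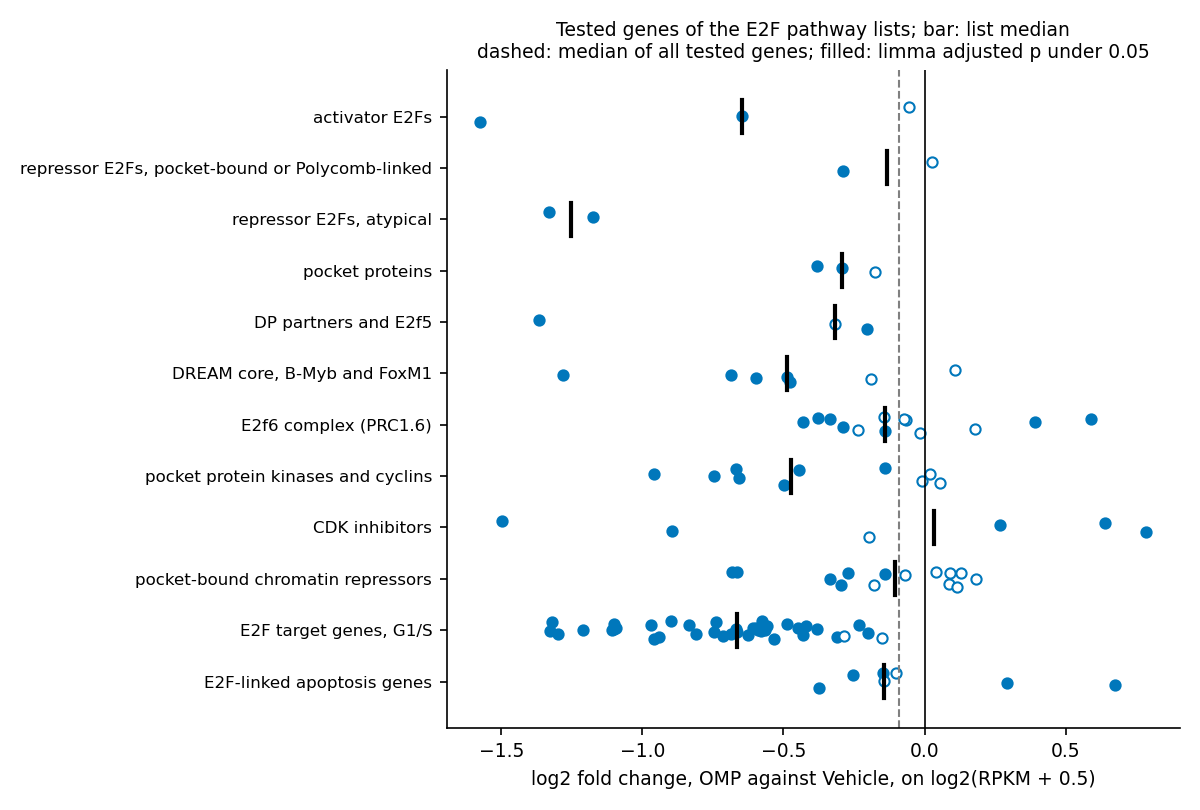
Log2 fold changes (x axis) of the tested genes in 12 lists of the E2F pathway (rows), filled where called, with the list median as a bar. The G1/S targets and the atypical E2Fs lie to the left of 0, while the CDK inhibitors and the E2f6 complex spread to both sides. Some genes appear in several lists.

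Apoptosis genes linked to E2F1 moved in both directions, with 2 higher and 3 lower of 7 tested genes. With 15.4% higher and 27.5% lower over all tested genes, these few counts are not read as a trait of the list. Bcl2l11 (Bim) rose from 8.77 ± 0.634 to 14.3 ± 0.676 RPKM (limma adjusted p = 0.00032) and Pmaip1 (Noxa) fell from 65.1 ± 2.34 to 54.5 ± 1.78 RPKM. Bbc3 (Puma), picked with its value known, rose by 0.29 on the log2 scale (limma adjusted p = 0.0306).

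E2F letters were also counted in the promoter windows of all tested genes that had one. They were in 7.12% of the 2388 genes called lower, in 3.37% of the 1335 called higher and in 4.43% of the 4444 not called. Over all 8167 tested genes with a window the share was 5.04%. Among genes called lower by at least 2-fold it was 10.3% (18 of 175). Among those called higher by at least 2-fold it was 0.9% (1 of 111). Of the members called lower by at least 2-fold, E2f2 and E2f7 hold the full letters themselves and E2f8 does not. The genes of the G1/S list had 39 windows in the table, of which 15 (38.5%) held E2F letters, against 2.26% of all windows. The 2.26% counts windows of tested and untested genes, while the 5.04% above counts tested genes alone. These shares are descriptions without a test.

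Markers of maturing neutrophils mostly rose in OMP. Over all tested genes 15.4% were called higher and 27.5% lower. Of 16 neutrophil markers 14 rose and 1 fell, and their summed level was 2927 to 3038 RPKM in Vehicle and 9677 to 10200 RPKM in OMP. Cebpe fell (-0.21 on the log2 scale) and Cxcr2 was not called (-0.01), both named after their values were seen. Of 12 progenitor markers 8 fell and 3 rose, with sums of 3045 to 3121 and 1488 to 1598 RPKM. The 3 that rose were Ptprc, Spi1 and Csf2rb, named after their values were seen. Of 10 monocyte markers 6 were tested, of which 2 rose, 3 fell and 1 was not called, and C1qa was listed at 0. Cd14 and Fcgr1 rose, at 1.67 and 1.34 on the log2 scale, and Irf8 fell most, at -2.39. The part of maturation in the members' values was not tested. Markers of other lineages were low apart from Pecam1. Erythroid markers summed to at most 0.959 RPKM with 5 of 10 listed at 0, among them Hbb-bt. B cell markers summed to at most 0.587 RPKM with 5 of 7 listed at 0, among them Pax5, and of the T and NK markers 6 of 8 were listed at 0. Megakaryocyte markers summed to 1.27 to 1.61 RPKM in Vehicle and 4.19 to 4.73 RPKM in OMP without overlap, with Gp1bb called higher (0.95 on the log2 scale, limma adjusted p = 0.0219) and Pf4 listed at 0. Their part in the members' values was not tested. Of 6 fibroblast and endothelial markers 3 were listed at 0 and Pecam1, also made by leukocytes, fell. A listed 0 can be a missing estimate, since 6 of 13 mitochondrially encoded mRNAs were listed at 0 as well, and the summed level of that list overlapped between groups (8370 to 9483 and 8518 to 9840 RPKM). Library totals recovered from the values ran from 3494986 to 4247619 reads, with the 3 OMP libraries below the 3 Vehicle libraries. They lay close to the reads summed over genes (3737843 and 3734837 in Vehicle replicate 1), so they need not count all sequenced reads. The part of depth was not tested.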

How the data were processed

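Poly(A)-selected RNA of 6 libraries was sequenced after TruSeq preparation, per the labels' protocols. The authors deposited RPKM, with 1 column per library matched by title. Tools named in the submitters' processing notes are STAR 2.5.3a, featureCounts 1.6.3, Trimmomatic 0.36 and FastQC 0.11.5, with the build mm10 (GRCm38). Not given in the sources used here are the annotation release, the strand setting and any filter. Genes reaching 1 RPKM in 3 or more of the 6 libraries were fitted as log2(RPKM + 0.5) with limma 3.58.1 in R 4.3.3, with a trended prior variance and no covariates. P-values were two-sided and adjusted by Benjamini-Hochberg over all 11020 genes tested. The fit was tested on simulated data. Fold changes on the log2 scale understate those of low genes, and folds of mean RPKM are named as such or come with both means.

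For the 19970 genes above 0 a length and library totals gave whole reads for 100% of values, within a relative tolerance of 1e-06. These reads give depth and cover counting error only. Within a group, read counts of library pairs had chi-square values of 1.19 to 1.61 per degree of freedom, above counting noise, so no library was counted as a copy of another. Gene positions and overlaps of exons came from GENCODE M21 on GRCm38 and promoter windows from RefSeq on GRCm38.p6.

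The members and lists were chosen with earlier results of these data known. Named genes were the members, 16 pathway genes fixed by name and the 3 genes with the smallest p in each list. Some genes that this rule names are not reported here. Alternatives were other pseudocounts, filters, scalings, a robust prior, the replicate block, leaving out each library and, added after seeing the data, voom on the recovered reads.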

Additional observations from a re-analysis of the deposited data

How the results depend on the processing

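All 16 alternatives called the same number of members lower, 7, and the members' 160 values stayed on their side of the threshold. Between 3952 and 5333 genes were called (3952 to 4207 with 1 library left out), and 35 to 38 E2F targets were called lower. The activator minus repressor difference, -0.0663, was -0.0374 with quantile normalization and -0.0836 to -0.0561 with 1 library left out. For the other 48 named genes, 740 alternative values matched the call made in the report, 8 fell short of it, 13 newly passed and 1 turned the direction of a gene called in the report: mt-Cytb had -0.0599 with quantile normalization. Genes that were not called and lay near 0, such as Ccnd1, Ccnd2, Cdk6 and Lck, also changed sign under some settings without being called. Why these 2 values moved with that setting was not tested. As to pairing, libraries with equal numbers had deviations correlated at -0.0024, 0.0155 and 0.0069, so the numbers were not taken as pairs. With the replicate block 4445 genes, 7 members and 37 targets were called, and the activator minus repressor difference was -0.0663. Low read numbers limit E2f7 most among the members.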
